A study of Homo sapiens with 19 samples.

Results

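Cycling cells in human liver organoids kept on an orbital shaker (OS) are described here. A cell was counted as cycling when at least 1 transcript, counted as a unique molecular identifier (UMI), was found for at least 3 of 6 genes of the G2 phase and mitosis, TOP2A, MKI67, CDK1, UBE2C, CENPF and NUSAP1. Cells were thus chosen by their UMIs of these 6 genes, whose values are given as a description only. Only cells with at least 500 genes detected and at most 20% mitochondrial counts entered. By this rule 5895 of 85951 cells kept from 14 OS libraries were cycling, or 6.86%, and the other 80056 cells were not called. The whole series held 120240 kept cells. Of the cycling cells, 1594 had UMIs of 3 rule genes, 1258 of 4, 1229 of 5 and 1814 of all 6. Just outside the threshold lay 2423 cells with 2 rule genes, while 6733 cells had 1 and 70900 had 0.

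A dividing cell copies its DNA in S phase and separates the copies in mitosis, and each stage has its own set of transcribed genes. In S phase the MCM helicase, nucleotide synthesis enzymes such as RRM2 and TYMS, and replication factors are made under control of E2F factors. In G2 and mitosis the spindle, kinetochore and cytokinesis genes are made, many of them through promoters with a CCAAT box and a cell cycle genes homology region (CHR). The adult liver divides rarely, whereas fetal hepatoblasts, ductal cells and the collagen-producing mesenchyme around them divide as the organ grows.

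The organoids came from W01, an established wild-type line of human pluripotent stem cells from WiCell, and were dissociated with trypsin on day 25 for 10x 3′ version 3 libraries. There were 7 groups of 2 libraries. They were untreated organoids, organoids given TGFB1 (transforming growth factor β1, a profibrotic cytokine) at 10 ng/ml and their control, organoids given PA at 500 µM and their control, and organoids given OA at 500 µM and their control. For TGFB1 and PA the labels give 20 days of culture and then 5 days of treatment, and for OA they state no length. The labels spell out neither PA nor OA. Nothing in them says that the 2 libraries of a group came from separate differentiations, so each p-value measures only the spread between these libraries, which may be technical. All groups share 1 line, which limits every comparison to that genetic background.

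Depth differed between libraries. Total UMIs ranged from 7476533 to 59163747 per library. The median per cycling cell ran from 2101 UMIs in TGFB1 control 1 to 20813.5 in OA control 2, and in each library it was above that of the other cells. Among 85023 distinct cell barcodes, 922 occurred in more than 1 library, with at most 31 for a pair, and 6 were shared between cycling cells.

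The promoters of the rule genes were searched for the elements named above. RefSeq promoters (GRCh38.p14, 250 bases before to 50 after the gene's start) were found for 5 of the 6, and UBE2C was not in the table. All 5 held a CHR core, spelled TTTGAA or TTCGAA, and all 5 a CCAAT box, spelled CCAAT, on either strand. The E2F sequence TTTCGCGC was in 1 of the 5, that of CDK1. Printed 5′ to 3′ along the gene's strand, with each match on either strand in capitals, are topoisomerase 2 alpha (chr17:40417847-40418146, minus strand), the proliferation marker Ki-67 (chr10:128126374-128126673, minus strand) and the spindle protein NUSAP1 (chr15:41332631-41332930, plus strand).
TOP2A: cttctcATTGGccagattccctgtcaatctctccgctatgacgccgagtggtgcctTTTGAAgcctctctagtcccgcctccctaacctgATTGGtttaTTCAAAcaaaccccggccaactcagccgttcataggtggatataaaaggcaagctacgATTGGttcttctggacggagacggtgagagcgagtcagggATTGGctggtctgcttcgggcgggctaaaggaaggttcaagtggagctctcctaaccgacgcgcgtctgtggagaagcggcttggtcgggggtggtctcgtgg
MKI67: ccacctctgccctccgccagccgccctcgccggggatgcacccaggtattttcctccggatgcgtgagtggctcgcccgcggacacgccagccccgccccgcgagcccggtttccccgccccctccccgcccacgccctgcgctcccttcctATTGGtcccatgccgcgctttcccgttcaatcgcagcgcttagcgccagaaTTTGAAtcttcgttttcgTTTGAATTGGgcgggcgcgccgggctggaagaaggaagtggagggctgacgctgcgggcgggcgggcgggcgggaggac
NUSAP1: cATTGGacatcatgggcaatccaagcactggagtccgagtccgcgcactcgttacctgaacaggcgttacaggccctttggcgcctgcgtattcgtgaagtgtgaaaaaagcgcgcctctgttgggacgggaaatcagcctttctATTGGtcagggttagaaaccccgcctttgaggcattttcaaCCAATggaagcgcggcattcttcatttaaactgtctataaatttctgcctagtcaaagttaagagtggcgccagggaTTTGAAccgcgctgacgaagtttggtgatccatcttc
TOP2A carried several copies of both elements, and in MKI67 the last capital run is a CHR core that overlaps a CCAAT box. Both elements together were in 17 of 26 promoters (65.4%) of a list of G2 and mitosis genes, in 2 of 24 (8.33%) of a list of G1/S and S phase genes, and in 6.58% of 27305 promoters of the same length. The CHR core alone was in 76.9% of the G2 and mitosis promoters, 8.33% of the S phase promoters and 16.6% of all promoters. TTTCGCGC was in 0 of 26, in 4 of 24 (16.7%) and in 0.546%. These are matches of letters and not measured binding.

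The rule genes themselves were found as the rule required, and genes it did not use moved with them. TOP2A had a UMI in a median of 88.9% of the cycling cells of a library against 2.69% of the other cells. For MKI67 the values were 72.8% and 1.45%, and for UBE2C, a ubiquitin-conjugating enzyme of the anaphase-promoting complex, 65.2% and 0.865%. With 0 to 6 rule genes per cell, the 30 genes of G2 and mitosis, none of them in the rule, went from a median of 1.52 UMIs per 10000 through 6.69 at 2 rule genes and 11.7 at 3 to 37.0 at 6. The 30 genes of G1/S and S phase went from 2.57 through 13.8 at 3 to a highest value of 19.4 at 4, and stood at 16.1 at 6. Cells with 2 rule genes, counted as not cycling, thus already held more S phase transcripts than cells with none.

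**Figure D1:**
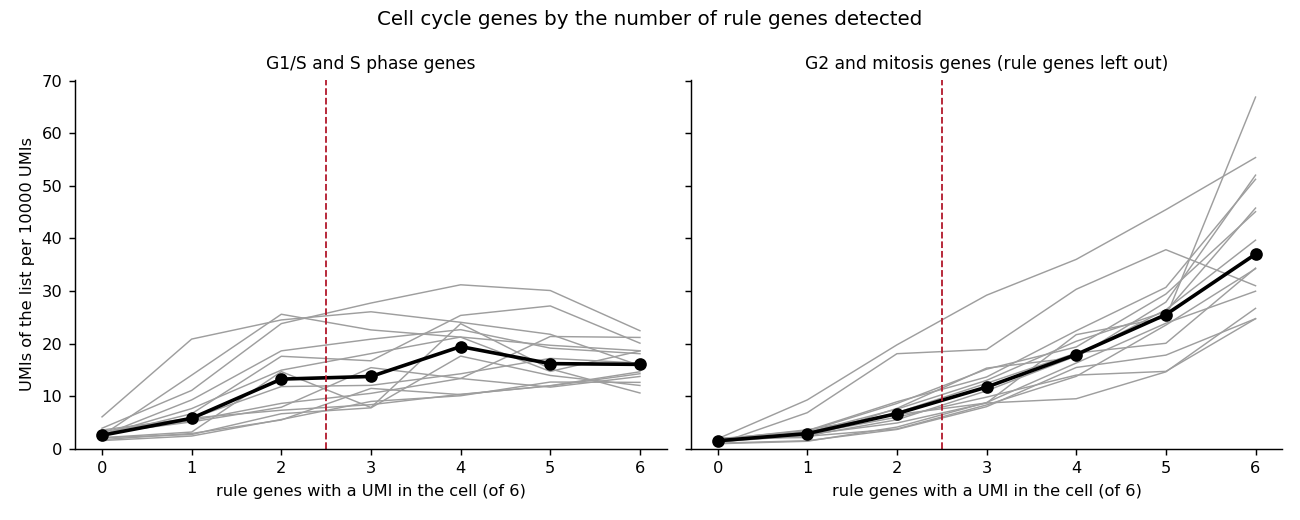
UMIs per 10000 of the S phase list and of the G2 and mitosis list (y axis) in cells with 0 to 6 rule genes detected (x axis), 1 line per OS library with the median over libraries. The G2 and mitosis list climbs at each step to 37.0, while the S phase list is highest at 4 rule genes, at 19.4.

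Outside the rule, the genes with the highest median ratio of cycling over other cells were DLGAP5, a spindle protein, at 158 against 1.43 counts scaled to the library's total (CPM) and a median log2 ratio of 5.91, followed by PBK (5.36), BIRC5 (5.31), GTSE1 (5.29) and ASPM (5.15). Of the leading 20 genes, 11 were in the G2 and mitosis list and 1, RRM2, the small subunit of ribonucleotide reductase, was in the S phase list, at 134 against 3.504 CPM. All 20 were higher in the cycling cells in 14 of 14 libraries, which is a description because the rule chose the cells by related transcripts.

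Cells of both lineages cycled. A cell was called mesenchymal-marked with at least 2 UMIs of COL1A2 and COL3A1, which encode fibrillar collagen chains, and more of these than of EPCAM, KRT7 and AFP together. The reverse made it epithelial-marked, where EPCAM is an epithelial adhesion protein, KRT7 a ductal keratin and AFP the fetal albumin-like protein of hepatoblasts. These are ranges on a score and not cell types. Mesenchymal-marked cells made up 3.07% and 3.14% of the cycling cells in the TGFB1 control. The PA control had 28.9% and 38.75%, untreated organoids had 57.5% and 33.4%, and the OA control had 36.6% and 44.6%. Epithelial-marked cells were, in the same order, 38.4% and 91.9%, 27.6% and 53.5%, 39.2% and 60.4%, and 59.1% and 50.9% of the cycling cells. In the shallow TGFB1 control 1, 58.5% of the cycling cells reached neither mark, against 5.01% in its deeper partner, so the split by lineage moved with depth there.

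At an equal depth of 1500 UMIs per cell, the collagen marks were in most libraries more often found in cycling cells, and the epithelial marks less often. This did not hold in every group for the 15 mesenchymal genes summed without thinning. In untreated organoids these stood at 5144 and 1835 CPM in cycling cells and 6893 and 3689 in the others. In the OA control it was 1477 and 3354 against 3718 and 5403. The TGFB1 control and OA libraries also had less in cycling cells, and the TGFB1, PA control and PA libraries more. COL3A1 had a UMI in a median of 39.2% of cycling cells and 10.5% of the other cells, and was higher in cycling cells in 11 of 14 libraries. COL1A2 was at 28.1% and 8.09%, also higher in 11 of 14. EPCAM was lower in cycling cells in 14 of 14 libraries, at 31.3% against 58.4%, and AFP was lower in 14 of 14, at 12.2% against 26.8%. KRT7 was lower in 12 of 14, at 5.99% against 12.5%. Free RNA gives UMIs in cells that do not express a gene, so the share in cells with at least 2 UMIs of the opposite mark was taken as background at the same depth. COL3A1 in cycling cells was above its background (median 2.63%) in 14 of 14 libraries and COL1A2 (2.03%) in 13. EPCAM was above its background (13.9%) in 14 and AFP (6.63%) in 11. The EPCAM margin was thin in TGFB1 1, at 27.8% of 18 cells against 27.7%, and in PA control 1, at 17.1% of 35 cells against 13.3%. KRT7 was above its background (8.35%) in 3 of 14. In PA 1, PA 2, OA 1 and OA 2 the background cells held KRT7 more often (8.81%, 14.2%, 34.0% and 38.2%) than the other cells (8.76%, 10.7%, 17.9% and 22.8%). KRT7 is left unread in these libraries, and in the remaining ones at or below its background it is not told apart from background.

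Within each lineage, at 1500 UMIs, the share of cells that cycled was higher among mesenchymal-marked than among epithelial-marked cells in 11 of 14 libraries. The mean difference was 3.46 percentage points (SD 3.61, n = 14 libraries, two-sided exact sign-flip permutation p = 0.00415), a comparison chosen after the values were seen. Libraries of a group are not independent draws of the difference. Over the means of the 7 groups, 5 of them higher among mesenchymal-marked cells, it missed the threshold (exact sign-flip permutation p = 0.0625). Over libraries it was 4.70 points without TGFB1 and its control (exact permutation p = 0.00586), 4.16 without OA (0.00244) and 3.99 without OA, its control and the untreated libraries (0.0391). Without PA and its control it was 1.81 points and missed the threshold (exact permutation p = 0.0664). The 3 libraries in which epithelial-marked cells cycled more often at 1500 UMIs were both TGFB1 controls and OA 1, where 0 of 82 mesenchymal-marked cells were cycling. Without thinning, epithelial-marked cells cycled more often in both OA control libraries as well, so the order moved with depth there. In OA control 1, 525 epithelial-marked cells cycled and 2044 did not, against 325 and 1971 mesenchymal-marked ones. For OA control 2 the counts were 237 and 1141 against 208 and 1138.

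**Figure D2:**
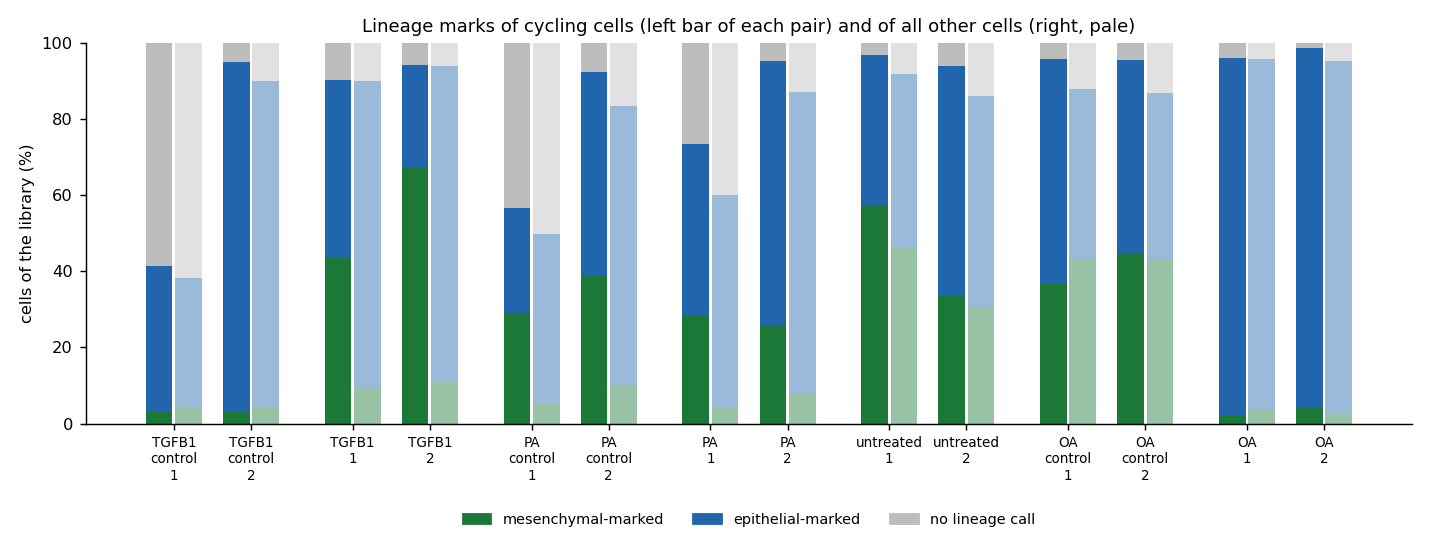
Percent of the cells of each OS library (y axis) that were mesenchymal-marked, epithelial-marked or neither. Each library has a stacked bar for its cycling cells (left) and a pale one for all other cells (right). In cycling cells the mesenchymal-marked part is 3.07% and 3.14% in the TGFB1 control and 43.6% and 67.3% with TGFB1, and it goes from 36.6% and 44.6% in the OA control libraries to 2.03% and 3.98% with OA.

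In TGFB1-treated organoids few cells cycled. The share was 7.12% and 10.1% in the control libraries and 1.03% and 0.753% with TGFB1, and the groups did not overlap. The means were 8.61% ± 2.10 and 0.893% ± 0.198 (SD, n = 2 each), a 9.64-fold difference. Two-sided exact permutation tests of 2 against 2 libraries cannot go below p = 0.33, which was the value here and for every share below whose groups did not overlap (adjusted over 4 comparisons 0.444, and 0.667 for the shares within a lineage). At 1500 UMIs per cell the control libraries were at 8.87% and 4.77% and the TGFB1 libraries at 0.323% and 0.304%, 21.8-fold apart. This thinning left 3933 of 9615 cells of TGFB1 control 1 and 8092 of 8505 of control 2. A call that used none of the rule genes, at least 3 of the S phase genes TYMS, RRM2, GINS2, CLSPN, TK1 and UHRF1 at 1500 UMIs, gave 2.24% and 1.73% of cells in the control and 2 of 5576 and 3 of 6580 cells with TGFB1, a 48.7-fold difference.

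With PA the share of cycling cells was 2.21% and 3.87%, where its control had 2.37% and 4.72%, so the groups overlapped (means 3.04% ± 1.18 and 3.55% ± 1.66, SD, n = 2 each, exact permutation p = 0.667). At 1500 UMIs the values were 1.39% and 1.44% with PA and 1.78% and 2.00% in the control, which did not overlap and were 1.34-fold apart. The S phase call gave 0.184% and 0.236% with PA and 0.458% and 0.522% in the control, 2.33-fold apart. Thinning left 1964 of 3205 and 4793 of 5742 cells in the control and 5963 of 7663 and 7630 of 8249 with PA. Of these, 35 and 96 were called cycling in the control and 83 and 110 with PA. Fewer still passed the S phase call. The groups thus separated at equal depth only, and neither the 1.34-fold nor the 2.33-fold gap, on so few cells, is read as an effect of PA. Within each group the deeper library had the higher unthinned share.

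With OA the share was 6.38% and 7.01%, and in its control 16.3% and 15.1%. The means of 6.70% ± 0.449 and 15.7% ± 0.862 (SD, n = 2 each) were 2.34-fold apart, and the groups did not overlap. At 1500 UMIs the difference was 1.98-fold, from 5.61% and 5.39% in the control to 3.23% and 2.32% with OA. By the S phase call it was 4.43-fold, from 0.838% and 1.18% to 0.248% and 0.208%, a size that is uncertain because few cells passed this call with OA. The same OA control was set against the untreated libraries, so these comparisons share its 2 libraries. Untreated organoids had 10.3% and 11.3% cycling cells, 1.45-fold below the OA control. At 1500 UMIs they had 4.75% and 5.53%, which overlapped the control (1.07-fold, exact permutation p = 0.667). At 1000 and at 3000 UMIs the TGFB1, PA and OA libraries lay below their own controls as at 1500.

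**Figure D3:**
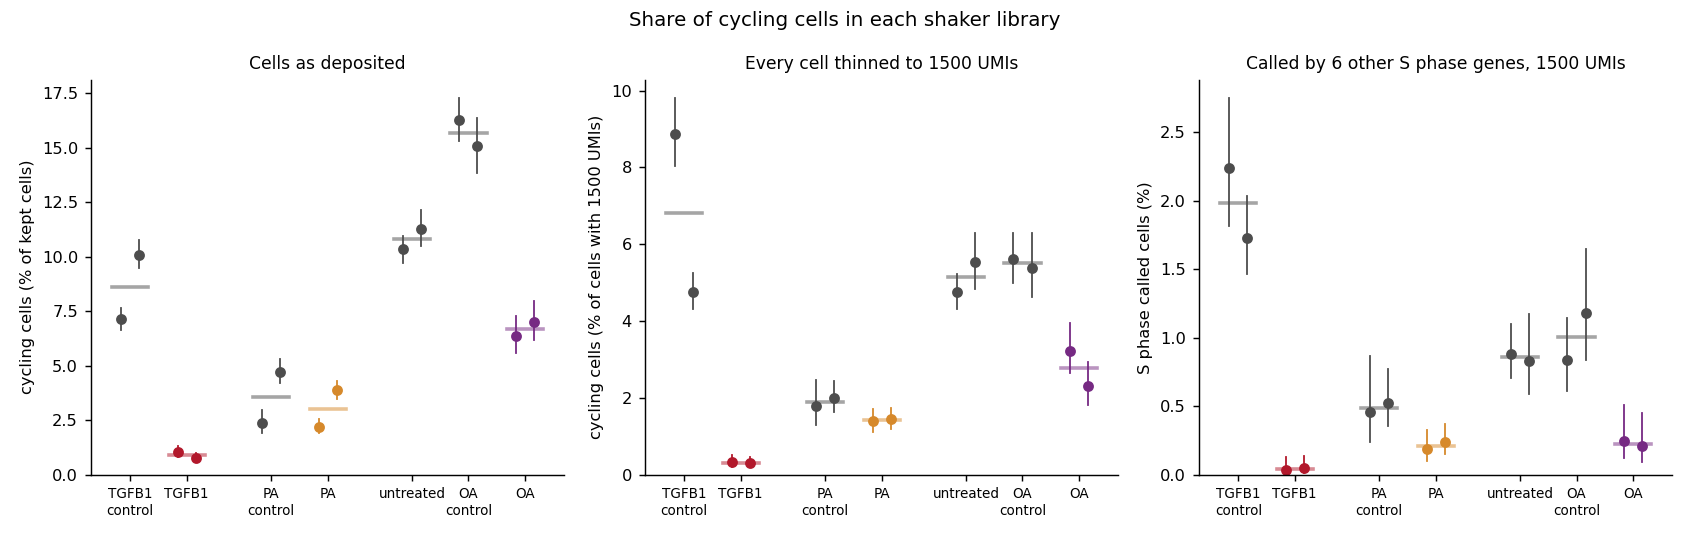
Percent of kept cells called cycling in each OS library (y axis) over all UMIs, at 1500 UMIs per cell, and by the S phase call at 1500 UMIs, with points for libraries and bars for group means. At 1500 UMIs both TGFB1 libraries lie at 0.323% and 0.304% below 8.87% and 4.77%, and both OA libraries at 3.23% and 2.32% below 5.61% and 5.39%.

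The lineages did not show these differences alike. Among epithelial-marked cells at 1500 UMIs, 82 of 1370 (5.99%) and 144 of 3763 (3.83%) cycled in the TGFB1 control. With TGFB1 it was 1 of 3827 (0.0261%) and 2 of 4261 (0.0469%), 134-fold apart, a size that is uncertain on so few cycling cells. Among mesenchymal-marked cells the control had 8 of 168 (4.76%) and 11 of 327 (3.36%), and TGFB1 had 7 of 531 (1.32%) and 14 of 717 (1.95%), 2.48-fold apart. The log2 ratio of the epithelial over the mesenchymal share was 0.33 and 0.19 in the control and -5.66 and -5.38 with TGFB1, a difference of -5.78 (exact permutation p = 0.33, the smallest that 2 against 2 libraries allow). With TGFB1 it rests on the same 1 and 2 epithelial-marked cells. Without thinning the fold among epithelial-marked cells was far smaller. There, 263 and 789 cycled and 3031 and 6541 did not in the control, against 29 and 14 and 4781 and 5682 with TGFB1.

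With OA the larger fold between group means lay in the mesenchymal-marked cells, of which few were left, so its size is uncertain. There, 130 of 1817 (7.16%) and 79 of 1155 (6.84%) cycled in the control, against 0 of 82 (95% Wilson interval up to 4.48%, counting error only) and 2 of 67 (2.99%) with OA. Among epithelial-marked cells 45 of 1510 (2.98%) and 28 of 826 (3.39%) cycled in the control and 53 of 2323 (2.28%) and 51 of 2349 (2.17%) with OA, 1.43-fold apart with no overlap. Without thinning the larger fold lay in the epithelial-marked cells, so which lineage fell more is not settled. There, 525 and 237 cycled and 2044 and 1141 did not in the control, against 185 and 214 and 2666 and 2772 with OA. Of mesenchymal-marked cells 325 and 208 cycled and 1971 and 1138 did not, against 4 and 9 and 104 and 78 with OA. With PA neither lineage separated from its control. Epithelial-marked cells cycled at 0.680% and 0.738% with PA and 0.663% and 0.952% in the control, and mesenchymal-marked cells at 10.9% and 7.48% against 7.37% and 7.66%. The PA organoids and their control had the widest gap between lineages, in percentage points, of all 7 groups.

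**Figure D4:**
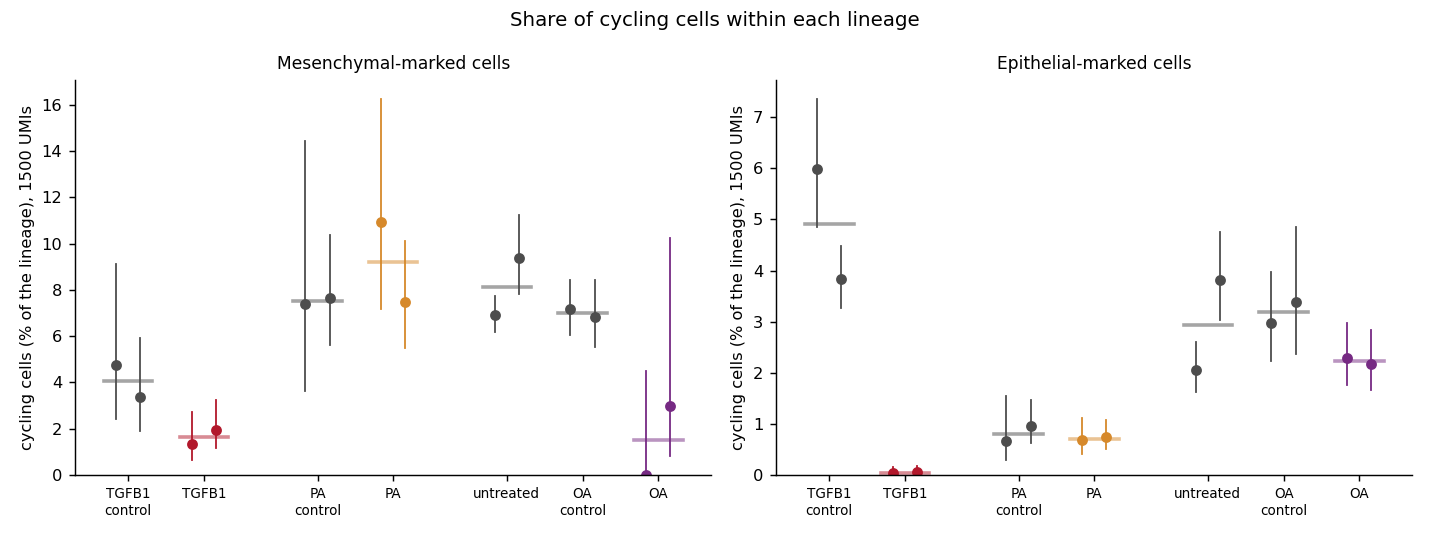
Percent of cells that cycled at 1500 UMIs (y axis) within mesenchymal-marked and within epithelial-marked cells of each OS library, with points for libraries. With TGFB1 the epithelial-marked cells lie at 0.0261% and 0.0469%, far below their control at 5.99% and 3.83%, while the mesenchymal-marked cells lie at 1.32% and 1.95% against 4.76% and 3.36%.

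The makeup of all cells moved as well. Mesenchymal-marked cells were 4.17% and 4.46% of the other cells in the TGFB1 control and 9.495% and 11.02% with TGFB1. In the OA control they were 43.2% and 43.3%, against 3.60% and 2.60% with OA. Among cycling cells their share went to 43.6% and 67.3% with TGFB1, and to 2.03% (4 cells) and 3.98% (9 cells) with OA. At 1500 UMIs COL3A1 had a UMI in 44.4% and 65.0% of cycling cells with TGFB1 against 3.73% and 3.63% in the control. AFP had one in 47.3% and 61.2% with OA against 11.1% and 11.9% in its control. UMIs of both lineages, at least 2 of each, were in up to 35.7% of the cycling cells of a library (untreated 1), and the highest doublet scores fell on 0% to 17.7% of cycling cells and 2.49% to 9.16% of the others.

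The stage of the cycling cells was read from the log2 ratio of summed G2 and mitosis UMIs over summed S phase UMIs, rule genes left out. Cells were chosen by G2 and mitosis transcripts in every group, so the ratio describes the chosen cells only. It was 0.82 and 0.49 in the TGFB1 control and 1.33 and 1.11 with TGFB1, which did not overlap. The PA control libraries had 0.57 and 0.19 against 0.26 and 0.22 with PA, and the OA control libraries 0.56 and 0.46 against 1.07 and 0.62 with OA. No exact permutation p was under 0.33. When the cells were called after thinning, the TGFB1 difference kept its sign, at 0.92, and that of OA turned to -0.11.

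Counts were then summed over the cycling cells of each library and tested gene by gene with edgeR's quasi-likelihood test, with Benjamini-Hochberg adjustment over 13859 genes and a threshold of 0.05. Values per library are CPM of these sums, and fold changes are on the log2 scale. With TGFB1, 666 genes (4.81%) passed, 468 higher and 198 lower. Scaled by DESeq2's size factors, edgeR called 697, 538 higher and 159 lower, and DESeq2 itself called 777, 632 higher and 145 lower. With 62 and 52 cycling cells behind the TGFB1 libraries, leaving out 1 library gave 141 to 635 calls, with 141 without TGFB1 2, 230 without TGFB1 1 and 273 without TGFB1 control 1.

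Of 20 tested genes of fibrosis and matrix, 19 rose and none fell, against 3.38% of all genes higher, with a median log2 change of 3.52 where that of all genes was -0.11. COL1A1 (ENSG00000108821, chr17:50184101-50201632), the main fibrillar collagen chain, was at 887 and 1372 CPM with TGFB1 and 49.8 and 74.6 in the control, a change of 4.23 (SE 0.434, edgeR adjusted p = 7.97e-05). FN1 (ENSG00000115414, chr2:215360440-215436073), fibronectin, was at 2406 and 3666 against 260 and 301 CPM, 3.49 (SE 0.469, edgeR adjusted p = 5.18e-04). TIMP3, an inhibitor of matrix proteases, was at 134 and 134 against 3.66 and 5.37 CPM (4.88). For all 3 genes both TGFB1 libraries lay far above both controls, and all 3 were called whichever library was left out. ACTA2, the smooth muscle actin of myofibroblasts, was at 69.6 and 85.6 against 6.40 and 7.24 CPM (3.54).

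Of 15 mesenchymal genes 12 rose, against 3.38% of all genes higher, with a median of 3.83. COL3A1 was at 699 and 1490 against 84.6 and 74.7 CPM (3.83, SE 0.546, edgeR adjusted p = 7.55e-04), and PDGFRB, the platelet-derived growth factor receptor of stellate cells and pericytes, rose by 3.70 on the log2 scale. Without TGFB1 2 the mesenchymal calls were 6. Of 14 targets of TGF-β 8 rose, against the same 3.38%, with a median of 1.47, among them TGFBI (179 and 335 against 28.3 and 19.1 CPM, 3.51) and TAGLN, an actin-binding protein of smooth muscle (770 and 668 against 20.6 and 65.3 CPM, 4.096). TAGLN was not called without TGFB1 control 1 (edgeR adjusted p = 0.0651), and the targets called were 4 without TGFB1 control 1 or TGFB1 1 and 2 without TGFB1 2.

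The lineage makeup moved with these lists. Within mesenchymal-marked cycling cells alone, edgeR called 0 genes (559 at an unadjusted p under 0.05), and the 20 fibrosis genes had a median of 0.21, the mesenchymal genes of 0.01 and the TGF-β targets of 0.58. These were 21 and 27 cells in the control and 27 and 35 with TGFB1, so the absence of calls is not read as a lack of change. COL1A2 and COL3A1, whose UMIs set this class, are members of the fibrosis and mesenchymal lists. In TGFB1 1 EPCAM was found in 27.8% of cycling cells at 1500 UMIs, against a background of 27.7%. Within epithelial-marked cycling cells, where TGFB1 2 with 14 cells was dropped, TGFB1 1 with 29 cells stood alone and was assumed to vary like the other groups. That fit called 20 genes, 19 higher (0.131%) and 1 lower, and no p from it is given here for a gene with TGFB1. FN1 was at 3.25 and TGFBI at 3.504, and the fibrosis list had 2 calls and a median of 2.64. How much of the rise over all cycling cells came with the makeup was not tested further.

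Among cell cycle regulators, CDKN2B (ENSG00000147883, chr9:22002903-22009305), the inhibitor p15 of CDK4 and CDK6 and a known target of TGF-β, was at 112 and 102 CPM with TGFB1 and 15.5 and 16.2 in the control. Its change of 2.81 (SE 0.382, edgeR adjusted p = 5.36e-04) was called with any library left out. Within mesenchymal-marked cycling cells it was 1.355 (edgeR adjusted p = 0.675), and within epithelial-marked ones, with TGFB1 1 alone, 2.71. Of 16 CDK inhibitors and growth arrest genes it was 1 of 2 that rose, against 3.38% of all genes, and the list's median was -0.05. The other was GADD45B, a call lost without TGFB1 control 1, TGFB1 1 or TGFB1 2 (edgeR adjusted p up to 0.284). Of 10 G1 cyclins and drivers 2 rose, and none without TGFB1 1 or TGFB1 2. The call of CCND3, cyclin D3, was lost without TGFB1 control 1, TGFB1 1 or TGFB1 2 (up to 0.221). CDK6, a G1 kinase, was at 85.4 and 85.6 against 35.7 and 27.6 CPM (1.499, edgeR adjusted p = 0.00934), a call lost without TGFB1 control 2, TGFB1 1 or TGFB1 2 (up to 0.0963). Within mesenchymal-marked cycling cells CDK6 was at -0.03.

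Of 30 S phase genes 4 fell in the cycling cells of TGFB1 organoids and none rose, against 1.43% of all genes lower, 19 had an unadjusted p under 0.05, and the median was -0.99. With 1 library left out 0 to 3 were called, 0 without TGFB1 1 and 2 without either control library. RRM2 (ENSG00000171848, chr2:10120698-10211725) was at 45.8 and 53.2 CPM against 213 and 147, a change of -1.82 (SE 0.315, edgeR adjusted p = 0.00284, and 0.0529 without TGFB1 1). The chromatin remodeller HELLS was at 58.5 and 118 against 194 and 217 CPM (-1.195), not called without either control library or TGFB1 1 (up to 0.321). For G2 and mitosis genes the rule sets a floor in both groups. Of the 30 such genes 1 fell, PRC1, which bundles the central spindle, at 22.1 and 41.6 against 149 and 85.6 CPM (-1.88). It was not called without TGFB1 control 1, TGFB1 1 or TGFB1 2 (up to 0.223). The other cells, where few transcripts of these genes are found, had 27 of 30 S phase genes and 20 of 30 G2 and mitosis genes lower with TGFB1, where 11.3% of all 18990 genes tested there were lower. They include cells with 1 or 2 rule genes, 727 and 358 in TGFB1 control 1 and 732 and 211 in TGFB1 control 2. TGFB1 1 had 204 and 28 of these and TGFB1 2 had 175 and 17. The falls in the other cells thus cannot be told apart from the lower share of cycling cells.

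Of 16 genes of the endoplasmic reticulum (ER) stress response 6 rose, against 3.38% of all genes, with a median of 1.21. The calls were 3 without TGFB1 control 1, 1 without TGFB1 1 and 2 without TGFB1 2. HERPUD1, an ER membrane protein of protein degradation, was at 144 and 148 against 32 and 46.95 CPM (1.93, edgeR adjusted p = 6.70e-04), and was called with any library left out. It was 1.03 within mesenchymal-marked cycling cells (0.666) and 1.46 within epithelial-marked ones with TGFB1 1 alone, and the mesenchymal-marked share of the cycling cells moved with these changes as given above. The part of that makeup in them was not tested. Of 13 hepatocyte genes 2 fell and none rose, against 1.43% of all genes lower, and 1 fell with any library left out. AFP (ENSG00000081051, chr4:73431138-73456174) was at 9.49 and 11.6 CPM against 181 and 183, a change of -4.08 (SE 0.355, edgeR adjusted p = 2.80e-05). AFP helps to set the lineage classes, so its values within them are not read. FOXA2, a transcription factor of foregut endoderm, was at 3.16 and 6.94 against 74.1 and 47.4 CPM (-3.62).

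Other genes with large rises were GAL, which encodes galanin, at 108 and 69.4 against 0 and 0.671 CPM (7.48, 98 against 5 counts), SPON2 (5.31) and MME (4.92). MME was not called without TGFB1 control 2 (edgeR adjusted p = 0.0649). SAA1, an acute phase protein with near-identical copies that make its count uncertain, had 49 counts with TGFB1 and 0 in the control, at least 157-fold higher against a floor of 3 counts over the group. CAPN6 had a ratio of 0.0240 with a 95% counting interval of 0.000606 to 0.134, as TGFB1 libraries held 3 counts or fewer in all. Against 3.38% of all genes higher and 1.43% lower, the inflammation list had 4 of 21 genes higher (2 without TGFB1 control 1, TGFB1 1 or TGFB1 2). The gut list had 1 of 10 lower and the lipid list 1 of 19 higher. The epithelial list had 1 of 12 higher and 2 lower, and at most 1 lower with 1 library left out. The epithelial gene called higher was KRT7. At 1500 UMIs it was found in 2 of 18 and 0 of 20 cycling cells of the TGFB1 libraries, below its background of 17.5% and 8.07%. What lay behind this call was not tested.

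In the cycling cells of PA organoids 1 gene of 13859 passed (0.00722%), with 323 at an unadjusted p under 0.05, and DESeq2 called 7. This was complement C3 (ENSG00000125730, chr19:6677704-6730562), at 133 and 119 CPM with PA against 17.5 and 23.9 in the control (2.496, SE 0.304, edgeR adjusted p = 0.00361). The call was lost without PA control 1 (0.0827) and without PA control 2 (0.946). In simulated data with 100 changed genes of each size, the test found 84% of 4-fold and 11% of 2-fold changes in this comparison. These data were drawn with a single dispersion (spread between libraries) of 0.0584, so differences in spread between genes were left out. The percentages are thus not read as the share of real changes that would be found. Nor are the few calls with PA read as a lack of change.

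None of the 21 inflammation genes passed in cycling cells with PA, but all 21 had a positive log2 change, 18 had an unadjusted p under 0.05, and the median was 2.37 where that of all genes was 0.02. CCL20, a chemokine, was at 198 and 537 CPM against 30.5 and 12.8 (4.52, edgeR adjusted p = 0.127). CXCL1 was at 116 and 446 against 48 and 28.1 CPM (3.11, 0.127), and ICAM1, an adhesion molecule, at 32.3 and 56.7 against 4.36 and 5.70 (3.07, 0.0805). For all 3 genes both PA libraries lay above both controls, and PA 2 was the higher. Without PA 1 edgeR called 6 genes of this list, and DESeq2 also called 6. With no filter on low counts edgeR called 14 of the list among 44 genes in all. Within mesenchymal-marked cycling cells it called 2 of the list, against 0.0395% of all genes, with CXCL1 at 3.995 (edgeR adjusted p = 0.0188). Within epithelial-marked cycling cells it called none of the list, with 16 of 21 at an unadjusted p under 0.05 and CXCL1 at 2.70. In the other cells 6 of the 21 rose, against 0.0579% of all genes, with a median of 1.73. Of the 30 S phase and 30 G2 and mitosis genes none was called with PA, at medians of -0.08 and -0.17. For such genes the rule sets a floor in cycling cells of both groups, so this is not read as a lack of change.

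With OA 1631 genes (11.8%) passed in cycling cells, 822 higher and 809 lower, and 567 to 1098 with 1 OA or control library left out. The fewest came without OA control 2, then 633 without OA 2 and 720 without OA 1. Within epithelial-marked cycling cells 937 genes passed, 639 higher and 298 lower. Mesenchymal-marked cycling cells were too few with OA (4 and 9) for a fit of their own.

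Inflammation genes rose with OA. Of 21, 16 were higher and 1 lower, against 5.93% and 5.84% of all genes, and the median was 2.01. CCL20 (ENSG00000115009, chr2:227805739-227817564) was at 2877 and 2387 CPM with OA and 76.3 and 43.96 in the control, a change of 5.49 (edgeR adjusted p = 1.88e-04). The neutrophil chemokine CXCL8 was at 344 and 322 against 15.6 and 12.7 CPM (4.59), and BIRC3, an inhibitor of apoptosis and target of NF-κB, at 124 and 78.6 against 5.75 and 5.47 CPM (4.20). The control libraries of all 3 lay far below both OA libraries. CXCL1 (477 and 336 against 30.2 and 39.6 CPM, 3.58) and IL32 (685 and 606 against 93.5 and 56.6 CPM, 3.14) also rose. These 5 genes were called with any library left out and within epithelial-marked cycling cells. The gene called lower was SAA1, with 2 counts left of 108, whose count is uncertain because of its copies.

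Of 19 genes of lipid oxidation and lipid droplets 8 rose and none fell, against 5.93% of all genes higher, with a median of 0.74 where that of all genes was -0.09. Without OA control 2 edgeR called 3 of them, and without OA 1 it called 4. PLIN2 (ENSG00000147872, chr9:19108375-19149290), the coat protein of lipid droplets, was at 702 and 643 CPM against 184 and 148 (2.05, SE 0.337, edgeR adjusted p = 8.02e-04). CPT1A, which carries fatty acids into mitochondria, was at 68.7 and 56.7 against 9.99 and 7.72 CPM (2.85), and CREB3L3, a hepatic and intestinal transcription factor of fasting, at 103 and 91.2 against 11.2 and 7.54 (3.40). All 3 were called with any library left out and in epithelial-marked cycling cells.

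Of 13 hepatocyte genes 5 rose and 1 fell in the cycling cells with OA, against 5.93% of all genes higher and 5.84% lower, and 3 rose without OA control 2. AFP was at 2747 and 2348 CPM against 369 and 312 (2.94, edgeR adjusted p = 6.14e-06), and albumin, ALB, at 565 and 130 against 17.6 and 0.987 (5.25). APOC3, an apolipoprotein of triglyceride-rich particles, was at 352 and 144 against 2.65 and 1.08 CPM (7.05). The fibrinogen chain FGG fell, from 23.3 and 18.3 to 5.26 and 2.67 CPM (-2.37), a call lost without OA 2 (0.152). Of 10 gut genes 3 rose and 1 fell. FABP2, the intestinal fatty acid binding protein, was at 464 and 125 against 7.26 and 3.32 CPM (5.82), and OLFM4, a crypt gene, at 439 and 315 against 41.4 and 84.0 (2.62). LGR5, a stem cell receptor, was at 2.92 and 0.485 against 16.9 and 7.63 CPM (-2.85), a call lost without OA control 1 (0.0926) or OA 2 (0.161). KRT20, a keratin of mature gut epithelium, was at 895 and 871 against 11.2 and 2.51 CPM (7.03), and APOA4 at 465 and 518 against 3.63 and 1.26 (7.65). Within epithelial-marked cycling cells FABP2 rose by 5.43, KRT20 by 6.72 and APOA4 by 7.28.

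Mesenchymal genes were far lower in the cycling cells with OA. Of 15 mesenchymal genes 14 fell, against 5.84% of all genes lower, with a median of -5.09 (-4.29 with genes at 0 counts set at their bound), and of 20 fibrosis genes 15 fell, with a median of -2.80. COL1A1 was at 8.19 and 6.79 CPM against 444 and 941 (-6.50, edgeR adjusted p = 4.00e-06), and ACTA2 at 2.05 and 1.46 against 95.3 and 156 (-6.13). Matrix Gla protein, MGP, had 0 counts with OA and 10167 in the control, at least 1012-fold lower against a floor of 3 counts over the group. HHIP, NUPR1 and PDGFRB also had 0 counts, at least 71.9-fold, 59.6-fold and 54.9-fold lower. Within epithelial-marked cycling cells 4 mesenchymal and 5 fibrosis genes fell, against 2.05% of all genes there, and the fibrosis median was -0.997. Both lists hold COL1A2 and COL3A1, of which these cells were chosen to have few UMIs. ITGB6, an epithelial integrin that activates TGF-β, rose, at 88.3 and 76.6 against 16.1 and 21.0 CPM (2.18).

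Few genes of the division machinery itself were called with OA. None of 30 G2 and mitosis genes passed (median -0.03). The rule sets a floor for related transcripts in both groups, so this is not read as a lack of change. Of 30 S phase genes 3 fell and 1 rose, near the 5.84% of all genes lower and 5.93% higher, with a median of -0.40. The falls were MCM2, a helicase subunit (11.4 and 11.2 against 27.2 and 32.8 CPM, -1.38), MCM5 (-1.16) and TYMS, thymidylate synthase (78.6 and 83.4 against 168 and 196 CPM, -1.13), and the rise was cyclin E2, CCNE2 (27.5 and 36.6 against 8.62 and 15.8 CPM, 1.43). Each of the 4 calls was lost when any of 3 of the 4 OA and control libraries was left out (edgeR adjusted p up to 0.239). Among cells called at 1500 UMIs, 2 of the 30 S phase genes rose and 0 fell, with a median of -0.11, so the falls did not hold there. Of 10 G1 cyclins and drivers 4 fell, against 5.84% of all genes, and 1 or 2 fell with any 1 library left out. The list's median was -0.65, and -0.13 among cells called at 1500 UMIs, where 3 of 9 fell. CDK6 (ENSG00000105810, chr7:92604921-92836573) was at 13.5 and 10.9 CPM against 44.8 and 50.5, a change of -1.94 (SE 0.300, edgeR adjusted p = 5.30e-04), called with any library left out and at -1.70 in epithelial-marked cycling cells. Cyclin D2, CCND2, was at 70.2 and 55.3 against 157 and 162 CPM (-1.31), not called without OA 2 (0.119). CDK4 (-1.10) and MYC (-1.26) were lost without any 1 of the 4 libraries.

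Between the OA control and the untreated organoids, which share that control with the comparison above, 3 genes (0.0216%) passed in cycling cells, with 1270 at an unadjusted p under 0.05, and DESeq2 called 25. AFP was at 369 and 312 CPM in the OA control and 1433 and 1488 in untreated organoids (-2.10), and APOA4 at 3.63 and 1.26 against 184 and 40.4 (-5.48). EEF1A2, a translation elongation factor, was at 32.7 and 54.5 against 10.4 and 7.60 CPM (2.27). The genes called lower were 0.0144% of those tested. AFP and EEF1A2 were not called without OA control 2 (edgeR adjusted p = 0.150 each).

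**Figure D5:**
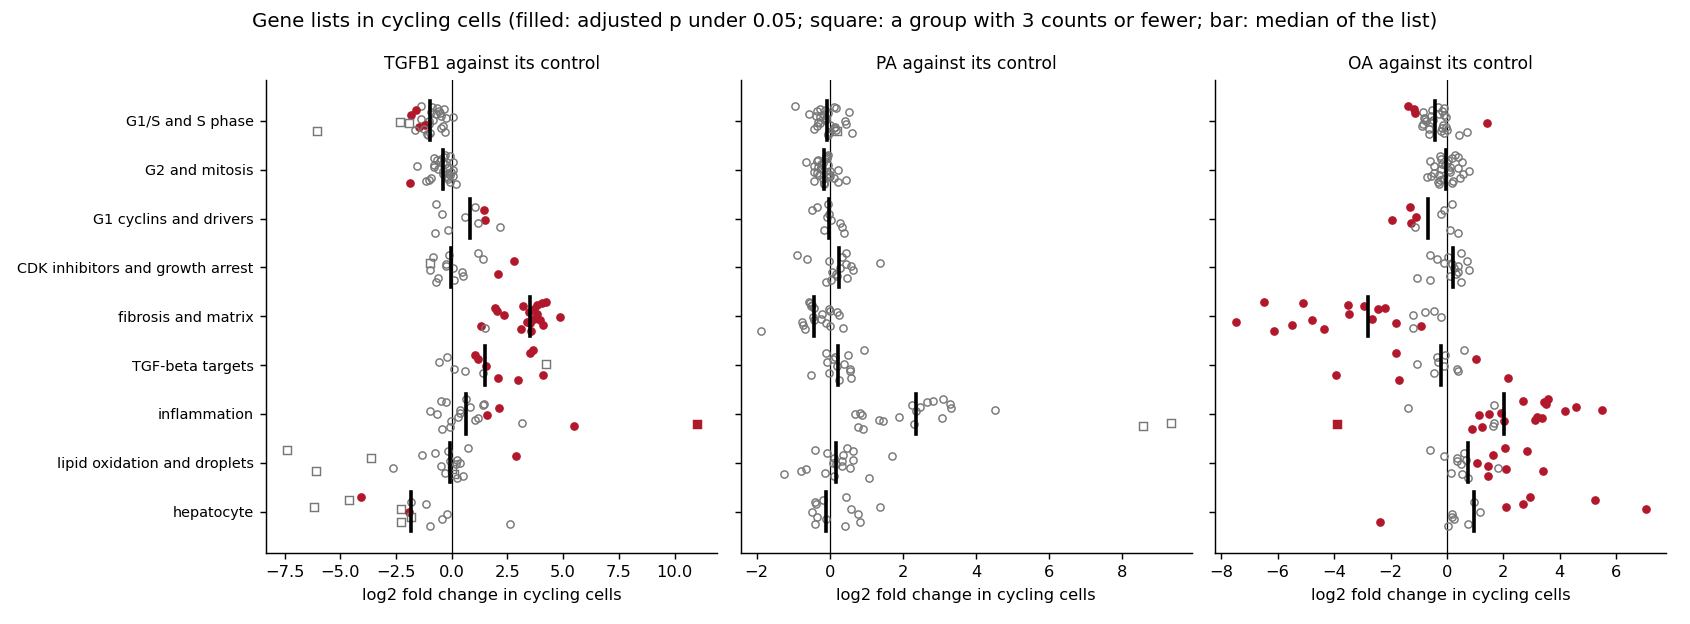
Log2 fold change of each tested gene in cycling cells (x axis) for the gene lists along the y axis, 1 panel per treatment, with filled symbols for edgeR adjusted p under 0.05, squares for genes with 3 counts or fewer in a group, and a bar at each list's median. With TGFB1 the fibrosis median is 3.52, and with OA it is -2.80 while the inflammation median is 2.01.

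The effects in cycling cells were compared with those in all other cells by an interaction term over 17167 genes. With TGFB1 639 genes (3.72%) differed, 264 with a higher effect in cycling cells and 375 with a lower one. With DESeq2's size factors they were 490, 322 higher and 168 lower, and the median over all genes moved from -0.19 to -0.04. PMEPA1, a negative regulator of TGF-β signalling, rose by 1.04 in cycling cells and 2.29 in the others (difference -1.27, edgeR adjusted p = 4.47e-05), and within epithelial-marked cells, with TGFB1 1 alone, the difference was -0.95. Of the fibrosis list 14 genes had the higher effect in cycling cells, against 1.54% of all genes (7 without TGFB1 control 2 or TGFB1 2), and COL1A1 differed by 2.15. Within epithelial-marked cells only, also with TGFB1 1 alone, 30 genes differed and COL1A1 was at -0.23.

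With OA 3311 genes (19.3%) differed, 655 with a higher and 2656 with a lower effect in cycling cells. With DESeq2's size factors they were 2902, 917 higher and 1985 lower, and within epithelial-marked cells 2817, 801 higher and 2016 lower. Of 19 lipid genes 16 had the lower effect in cycling cells, against 15.5% of all genes, with a median difference of -0.75 (13 with DESeq2's size factors, and 13 within epithelial-marked cells at a median of -0.59). PLIN2 differed by -0.64, CREB3L3 by -1.07 and CIDEC, a droplet fusion protein, by -1.99, and all 3 differed with any library left out. Of 13 hepatocyte genes 9 and of 10 gut genes 7 had the lower effect. Of 21 inflammation genes 2 had the higher effect in cycling cells and 3 the lower one, with a median difference of -0.04, where 3.82% of all genes had the higher effect. The higher calls were 1 without OA control 1 or OA 1 and 6 without OA control 2. CXCL8 was among them at 1.63 (edgeR adjusted p = 1.97e-05), called with any library left out. With PA 1 gene (0.00583%) differed, S100A8, at -3.99, lower in cycling cells. Between the OA control and untreated organoids 21 genes (0.122%) differed, 0.0117% of those tested higher in cycling cells and 0.111% lower. For cell cycle genes the rule sets a floor in cycling cells, so their differences between the classes are not read.

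Markers of other cell types were looked for in the cycling cells. Summed CPM over 8 endothelial genes ran from 40.6 to 126 per library in cycling cells, with a median of 81.5 against 89.4 in the others. Over 8 immune and blood genes the median was 235 against 281, of which lysozyme, LYZ, which epithelium also makes, had 228, and TYROBP and HBG1 were at 0 in all cycling cells. Over 8 neural genes the median was 195 against 293, and over 7 pluripotency and germ genes it was 22.5 against 23.9. The mesenchymal list was higher in cycling than in other cells in the 6 TGFB1, PA control and PA libraries and lower in the other 8. The epithelial list had a median of 6227 CPM in cycling and 7637 in other cells and was lower in cycling cells in 13 of 14 libraries. The hepatocyte list had 8936 and 13610 and was lower in 14 of 14.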

How the data were processed

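The deposited matrices hold UMI counts per gene and cell, whole numbers made by the authors with Cell Ranger against GRCh38. The submitters' processing notes name bcl2fastq, Cell Ranger 3.0.2 and Scanpy, while per the file headers the untreated and OA libraries were made with Cell Ranger 6.0.2, so the OA control and untreated groups share a version. Groups came from the sample titles. The 5 libraries from ultra-low attachment plates were not compared.

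Cells were kept and called cycling as the report gives, with no doublet removal, and for equal depth each was thinned to 1500 UMIs (numpy 2.4.6, scanpy 1.11.5), leaving out shallower cells. Counts of cycling cells were summed per library and fitted over all 14 OS libraries in 1 model (edgeR 4.0.16, TMM, its default filter, rule genes left out). The difference between classes used the library as a block. Shares were compared by two-sided exact permutation tests (scipy 1.17.1). Intervals cover counting error only. The tests were tried on simulated data, where 70% of 4-fold and 15% of 2-fold changes were found for TGFB1 and 97% and 22% for OA. A single dispersion of 0.0584 was used there, so these percentages do not cover genes whose spread differs from it. Coordinates are GENCODE 44, GRCh38. Genes were named from fixed lists, plus the up to 8 largest changes per direction among genes called, at 20 CPM or more in the higher group, with no overlap between groups. Some genes that this rule named are not reported here. The members and lists were chosen with earlier results of these data known. The alternatives are in the closing section.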

Additional observations from a re-analysis of the deposited data

Results flagged for a closer look

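The effect of a treatment differed between cycling and other cells, by edgeR's interaction test at an adjusted p under 0.05, for 639 genes with TGFB1, 1 with PA, 3311 with OA and 21 between the OA control and untreated organoids. Values below are the log2 effect in cycling cells minus that in the other cells.

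With PA the gene was S100A8, a calcium-binding protein of the inflammatory response, at -3.99 (edgeR adjusted p = 0.00106). In cycling cells it was at 4.03 and 78.1 CPM with PA and 262 and 180 in the control, and in the other cells at 157 and 369 against 42.4 and 81.1. The cycling cells of both PA libraries thus lay below their control where the other cells lay above it. It differed with any library left out and within epithelial-marked cells (-4.59).

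With OA the differences that held with any library left out included SPRR2F at 4.62 and, lower in cycling cells, the lectin gene LGALS2 at -2.63, MTTP, which loads lipid onto apolipoprotein B, at -2.43, CDCA3 at -2.40 and FGG at -2.35. CCL4L2, which has near-identical copies and an uncertain count, was at 4.04, CEP55 at 2.503 and CENPA at 2.19, and none of these 3 differed without OA control 1 or without OA 1. CTHRC1 was at 2.78 and did not differ without OA 1. LCN2 was at -2.77 and turned to 0.60 without OA control 2. For the cell cycle genes CDCA3, CEP55, CENPA and, below, DLGAP5, the rule sets a floor in cycling cells.

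With TGFB1 CNTNAP2, at -2.64, differed with any library left out. CRABP1 was at 3.96, DLGAP5 at 3.90 and SCRG1 at 3.87, and PTPN3 was at -2.38, MED25 at -2.34 and FHOD3 at -2.33. SCRG1 and FHOD3 did not differ without TGFB1 control 2, CRABP1 did not without TGFB1 control 2 or TGFB1 2, and the calls of DLGAP5, PTPN3 and MED25 were each lost without any of 3 libraries.

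Between the OA control and untreated organoids APOA4 was at -3.73 and differed with any library left out. CDKN2B was at -0.98, ITGB6 at -0.95 and UPK1B at -0.83. CDKN2B did not differ without untreated 2 (edgeR adjusted p = 0.0520), ITGB6 without untreated 1 (0.0581), and UPK1B without any of 3 libraries.

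Outside the OS libraries, 12613 cells of the 5 libraries from ultra-low attachment plates passed the same rule, between 21.0% and 47.02% of the kept cells of a library. These libraries were taken on other days and in other vessels, so no comparison was made.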

How the results depend on the processing

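The lower shares of cycling cells with TGFB1 and with OA kept their direction at 1000, 1500 and 3000 UMIs, under stricter cell filters, with 2 or 4 rule genes in place of 3, without the highest doublet scores and without any 1 library. That with PA did so at equal depth, but the unthinned difference ran from -1.68 to 0.67 percentage points without 1 library. The PA difference ran from -0.24 to 0.046 points within epithelial-marked and from -0.034 to 3.42 within mesenchymal-marked cells, and that of the OA control from untreated organoids ran from -0.025 to 0.76 points at 1500 UMIs, from -0.020 to 0.32 by the S phase call, from -0.62 to 1.13 within epithelial-marked, from -2.38 to 0.094 within mesenchymal-marked cells and from -16.9 to 7.18 for the mesenchymal share of cycling cells. After thinning, the mesenchymal share of cycling cells with PA differed by 0.050 points, and the stage ratio by 0.16 with PA, -0.11 with OA and 0.16 for the OA control. The stage ratio with PA ran from -0.33 to 0.057 without 1 library.

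Counts of genes called by edgeR without 1 library ran from 141 to 635 for TGFB1, 0 to 9 for PA, 567 to 1098 for OA and 1 to 42 for the OA control against untreated, and those of differences between classes from 126 to 773, 2 to 5, 2058 to 3642 and 39 to 93. DESeq2 called 7 genes for PA and 25 for the OA control. With no filter on low counts, 1135 genes passed for TGFB1, 44 for PA and 106 for the OA control, and 1250, 35 and 176 differed between classes. Fits of only the compared libraries called 9 for PA, 3253 for OA and 0 for the OA control (1342 at an unadjusted p under 0.05). Epithelial-marked cycling cells gave 20, 0 (381 at an unadjusted p under 0.05), 937 and 15 calls, and 30, 4 and 86 differences for TGFB1, PA and the OA control. Mesenchymal-marked cells gave 0 for TGFB1, 3 for PA and 7 for the OA control. Cells called at 1500 UMIs, where TGFB1 1 with 18 cells was dropped, gave 203 for TGFB1 and 0 for PA (461 likewise). Without the highest doublet scores the OA control had 5. The replicate numbers do not pair the libraries (correlations of deviations of -0.07, 0.07, -0.07 and -0.56), and a replicate block gave 433 calls for TGFB1 and 5 for PA. The crossed pairing gave 13 for the OA control.

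Single genes turned sign in cells of 1 lineage. In mesenchymal-marked cells with TGFB1 these were CDK6 (-0.034), COL3A1 (-0.079, a gene whose UMIs set that class), PDGFRB (-0.15) and TGFBI (-0.029), and in epithelial-marked cells MME (-3.14) and SPON2 (-4.22), and FN1 with OA (0.014). Among cells called at 1500 UMIs with TGFB1 it was SAA2 (-2.57). Differences between classes turned within epithelial-marked cells for COL1A1 (-0.23), CRABP1 (-7.18) and FN1 (-0.46) with TGFB1 and CTHRC1 with OA (-0.15). LCN2 with OA ran from -4.49 to 0.60 without 1 library. For these the cause was not tested. The summed counts rest on as few as 62 and 52 cycling cells with TGFB1 and 76 in PA control 1.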
